A study of Mus musculus with 12 samples.

Results

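The genes described here are the 7 inhibitors of cyclin-dependent kinases (CDKs) Cdkn1a, Cdkn1b, Cdkn1c, Cdkn2a, Cdkn2b, Cdkn2c and Cdkn2d and the 3 D cyclins Ccnd1, Ccnd2 and Ccnd3. They are 10 of the 55586 genes in the deposited table, matched by gene symbol. They were chosen by their response to Remodelin: the abundant Cdkn1c was lower and Cdkn1a higher in the treated libraries. The Remodelin values of these genes are therefore given as a description, without a test, and the tests concern the interferon comparisons and the genes around them. All 10 were among the 13474 genes that passed the filter on low counts.

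RNA sequencing was done on mouse peritoneal macrophages kept in culture with fetal bovine serum, in 4 groups of 3 libraries: untreated control cells, cells given IFN y (written IFN-γ here), cells given Remodelin hydrobromide, and cells given Remodelin hydrobromide and then IFN-γ. Remodelin is an inhibitor of the RNA acetyltransferase NAT10, which makes N4-acetylcytidine (ac4C), and the series concerns lowered ac4C in macrophages in hepatocellular carcinoma. The labels give no dose, time, strain, sex, age or number of mice, nor do they call replicates separate cultures, so p-values reflect a spread that may be technical. No genotype or other treatment is named for any group.

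CDKs drive cells from G1 into S phase and through mitosis when bound to cyclins. D cyclins pair with CDK4 and CDK6, which phosphorylate RB and release E2F factors. INK4 inhibitors (Cdkn2a to Cdkn2d) bind CDK4 and CDK6 directly, while the Cip/Kip inhibitors (Cdkn1a, Cdkn1b, Cdkn1c) bind cyclin-CDK complexes more broadly. Tissue macrophages are largely quiescent but can re-enter the cycle, and inhibitors of both families are among the brakes on that step. Inhibitor proteins are also controlled by degradation, which RNA counts do not measure.

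Library depth ran from 15917454 to 19418665 counts, so that 3 counts, the floor used for detection, corresponded to 0.154 to 0.188 CPM (counts scaled to library size, with trimmed-mean factors). Every one of the 8 defining macrophage markers was detected, with a summed level of 15100 to 25400 CPM over the 12 libraries. Most of that sum was Lyz2, at 12700 to 23200 CPM. Of the markers of large peritoneal macrophages, the factor Gata6 was at 9.54 to 19.5 CPM, whereas the phagocytic receptor Timd4 was at most at 0.116 CPM, below the floor. Nat10 itself was at 18.1 ± 1.97 CPM in control and 17.7 ± 4.28 in Remodelin (SD, n = 3). Its RNA level does not report on inhibition of the enzyme.

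Per unit of transcript length, Cdkn1c was by far the most abundant of the 10 genes in every library. In control cells the deposited FPKM (fragments scaled by gene length and library size) was 408 ± 42.9 for Cdkn1c, 24.9 ± 2.61 for Cdkn1a and 16.6 ± 2.99 for Cdkn2d (SD, n = 3 here and below). Cdkn2c followed at 5.24 ± 0.823. Ccnd3 (3.94 ± 0.375), Ccnd1 (3.9 ± 0.46) and Cdkn2a (3.77 ± 0.836) did not differ from one another beyond their spread. Cdkn1b was at 2.67 ± 0.334, Cdkn2b at 1.75 ± 0.163 and Ccnd2 lowest at 0.309 ± 0.0252. Cdkn1c supplied 88.1 ± 0.321% of the summed FPKM of the 7 inhibitors in control cells, and the 3 D cyclins together reached 8.15 ± 0.29 FPKM. Among all 55586 genes Cdkn1c ranked between 147 and 164 by FPKM in the 6 libraries without Remodelin.

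**Figure D1:**
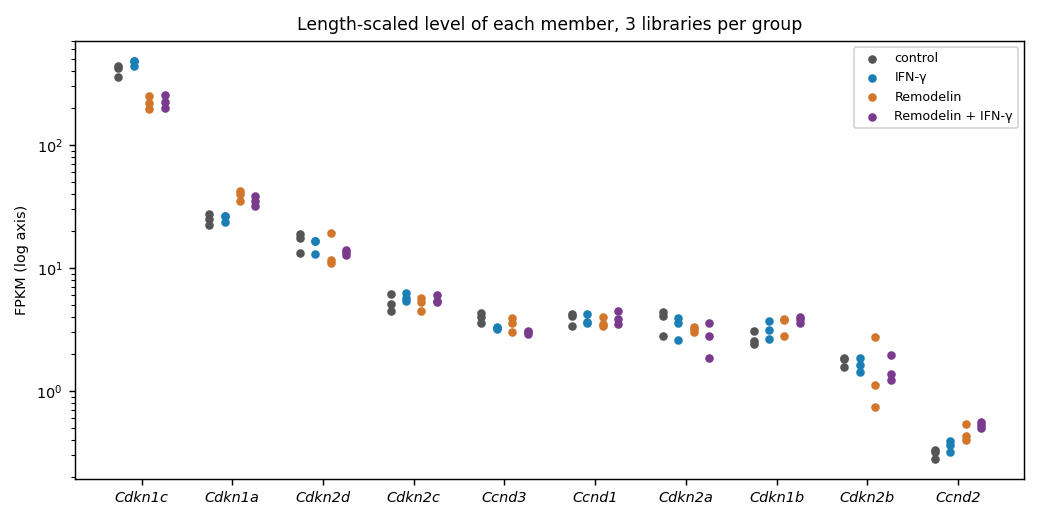
Deposited FPKM of the 10 genes on a log axis, ordered by their control mean, with 1 point per library and 3 libraries per group. Cdkn1c lies between 196 and 485 in the 12 libraries, no other gene exceeds 41.9, and Ccnd2 is the lowest throughout.

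Cdkn1c encodes p57, a maternally expressed imprinted Cip/Kip inhibitor known for holding cells in quiescence. It was measured at 745, 877 and 894 CPM in control, 999, 990 and 908 in IFN-γ, 489, 452 and 402 in Remodelin and 415, 528 and 456 in Remodelin with IFN-γ. All 6 libraries with Remodelin were below all 6 without it. Group means were 839 ± 81.9, 966 ± 50, 448 ± 43.7 and 466 ± 57.4 CPM in that order. The level with Remodelin was 1.87-fold lower than in control (log2 fold change -0.90 ± 0.15 SE) and 2.07-fold lower with IFN-γ present (-1.05 ± 0.15). Even so, Cdkn1c ranked between 249 and 331 by FPKM in the treated libraries and stayed the leading inhibitor there. The counts behind these values were 6647 to 17647 reads per library, so counting error was small beside the spread between libraries.

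Cdkn1a encodes p21, the Cip/Kip inhibitor best known as a p53 target and also raised by other stress pathways. It was measured at 80.3, 98.3 and 88.7 CPM in control, 94.7, 93.8 and 85.3 in IFN-γ, 142, 142 and 126 in Remodelin, and 114, 139 and 126 in Remodelin with IFN-γ. Here too the 6 libraries with Remodelin did not overlap the 6 without, this time lying above them. The log2 fold change with Remodelin was 0.62 ± 0.14 without IFN-γ and 0.47 ± 0.14 with it. The ratio of Cdkn1c to Cdkn1a in FPKM was 16.4 ± 1.07 in control and 18.5 ± 0.115 in IFN-γ, against 5.71 ± 0.257 in Remodelin and 6.42 ± 0.163 in the combined group. The share of the inhibitors' FPKM held by Cdkn1c went from 88.1 ± 0.321% in control to 77.1 ± 0.656% in Remodelin, and from 89.5 ± 0.153% in IFN-γ to 78.3 ± 1.33% in the combined group. Summed FPKM of the other 6 inhibitors was 54.9 ± 4.74 in control and 66.2 ± 7.96 in Remodelin, so their sum with Cdkn1c was 463 ± 47.6 against 289 ± 35.8.

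**Figure D2:**
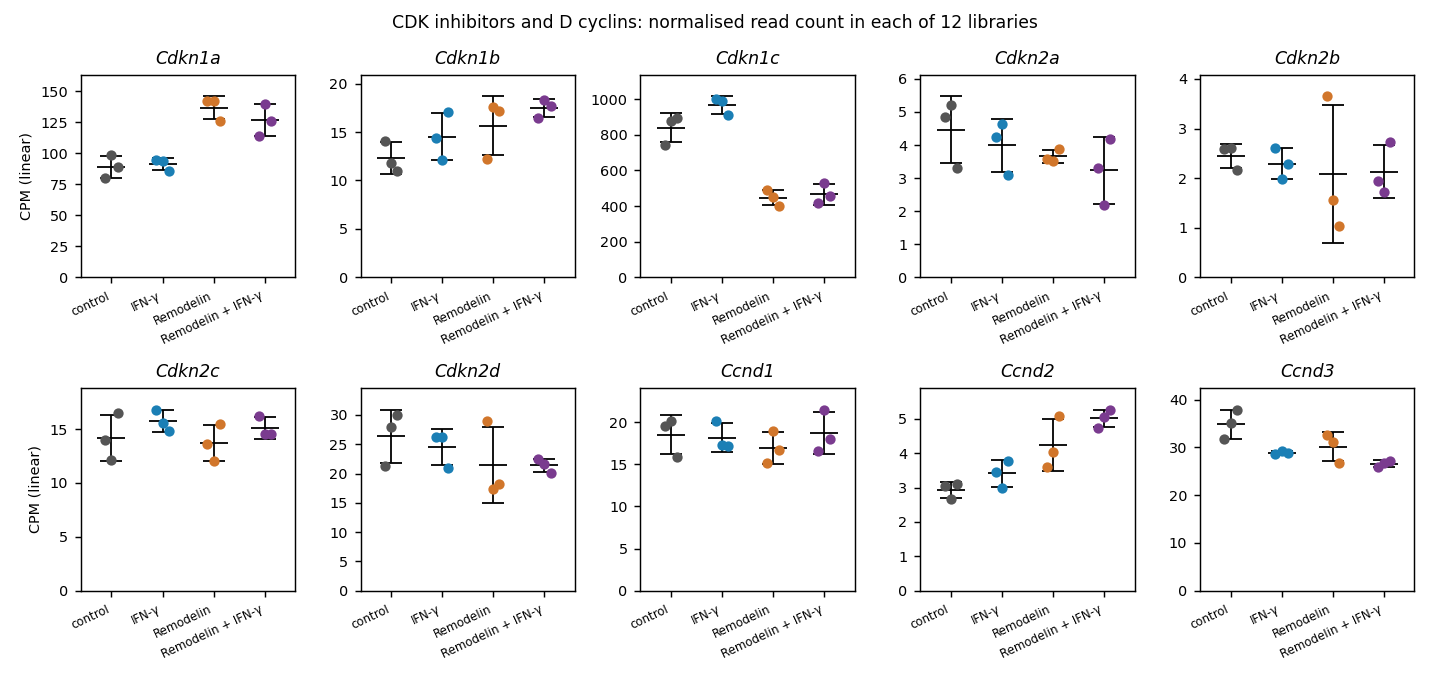
Normalised read count (CPM, linear axes from 0) of each gene in the 12 libraries. Points are libraries and black bars are the group mean with its SD (n = 3). Remodelin libraries lie at 402 to 528 CPM for Cdkn1c against 745 to 999 without it, and at 114 to 142 CPM for Cdkn1a against 80.3 to 98.3.

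Promoter windows of 250 bases upstream of a RefSeq start (GRCm38.p6) were at hand for 7 of the 10 genes, 11 windows in all, and not for Cdkn1c, Ccnd1 and Ccnd2. Cdkn1a, Cdkn2a, Cdkn2c and Ccnd3 each have 2 starts whose windows differ in make-up, and only the pair for Cdkn1a is shown. Both are on the plus strand and given 5′ to 3′. Capitals mark matches, on either strand, to the p53 response element (a pair of consensus decamers at most 13 bases apart), to the GC box GGGCGG and to the TATA box TATAA.
Cdkn1a upstream start, chr17:29090729-29090978: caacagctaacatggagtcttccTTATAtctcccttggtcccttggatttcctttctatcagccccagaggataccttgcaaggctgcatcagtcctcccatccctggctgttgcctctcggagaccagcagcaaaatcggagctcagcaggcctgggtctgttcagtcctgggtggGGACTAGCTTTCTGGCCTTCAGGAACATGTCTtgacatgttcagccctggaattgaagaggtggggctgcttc
Cdkn1a downstream start, chr17:29093519-29093768: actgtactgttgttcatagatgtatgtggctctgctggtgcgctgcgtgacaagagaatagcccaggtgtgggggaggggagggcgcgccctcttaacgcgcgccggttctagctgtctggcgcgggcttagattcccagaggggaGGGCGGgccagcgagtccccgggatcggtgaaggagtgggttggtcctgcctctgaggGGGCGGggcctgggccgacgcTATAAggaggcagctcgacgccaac
The upstream window held a match to the p53 pattern, from base -73 to base -42 relative to the start. Such a match was in 0.0639% of all 32851 windows of this length. No mismatch was allowed. The decamer directly after the marked stretch differs from the consensus in its first base only and is in lower case. Which of these decamers p53 binds was not tested. The downstream window held 2 GC boxes and a TATA box from base -25 to base -21. TATAA was also in the upstream window, on the opposite strand, from base -227 to base -223. GC boxes occurred in 32.7% and TATAA, on either strand, in 22.8% of all windows. The matches did not overlap each other, and CCAAT, found in 33.8% of all windows, was in neither. Of the 11 windows 7 held a GC box, from 1 to 3 each, and none held TTCNNNGAA, the interferon-γ activated site, which 7.02% of all windows held. A match describes the letters only, and gene counts do not say which start was used.

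The third Cip/Kip gene, Cdkn1b (p27), which links mitogen withdrawal to arrest, stood at 12.3 ± 1.64 CPM in control, 14.5 ± 2.45 in IFN-γ, 15.7 ± 3.03 in Remodelin and 17.4 ± 0.938 in the combined group. Its log2 fold change with Remodelin was 0.35 ± 0.19 and, under IFN-γ, 0.26 ± 0.19, with overlapping libraries in both. With each library's trend with transcript GC content removed, these values were 0.16 ± 0.18 and 0.06 ± 0.18.

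Among the INK4 genes, Cdkn2d (p19Ink4d) was the highest per length and Cdkn2c (p18) the next. Cdkn2d was at 21.3 to 29.9 CPM in control and 17.3 to 28.9 in Remodelin, and Cdkn2c at 12.2 to 16.5 and 12.1 to 15.4. The Cdkn2a row joins p16Ink4a with the p53-stabilising product Arf, which are read from different first exons, and held 42 to 96 reads per library. Cdkn2b (p15), a target of TGF-β signalling in many cells, held 18 to 57 reads. Cdkn2b was also the most uneven gene of the set: its Remodelin libraries were at 3.65, 1.56 and 1.04 CPM. For these 4 genes the log2 fold change with Remodelin lay between -0.05 ± 0.17 (Cdkn2c) and -0.30 ± 0.20 (Cdkn2d) without IFN-γ, and between -0.06 ± 0.17 (Cdkn2c) and -0.31 ± 0.27 (Cdkn2a) with it. The groups overlapped for all 4 in both settings.

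The D cyclins sense growth factors and carry CDK4 and CDK6 activity. Ccnd1 and Ccnd3 made up 47.8 ± 4.92% and 48.4 ± 4.73% of their summed FPKM in control, and Ccnd2 3.80 ± 0.434%. In Remodelin the shares of Ccnd1 and Ccnd3 were 48 ± 3.44% and 46 ± 4.27%, within that spread, and that of Ccnd2 was 6.05 ± 1.32%. Ccnd2 was at 3.04, 2.66 and 3.1 CPM in control, 3.45, 3 and 3.78 in IFN-γ, 3.59, 4.04 and 5.09 in Remodelin, and 4.75, 5.06 and 5.24 in the combined group. Each Remodelin group lay above its own comparison group, although Remodelin replicate 1 was below the highest IFN-γ library. The log2 fold change was 0.53 ± 0.22 and, with IFN-γ, 0.56 ± 0.22, from 49 to 97 reads per library. Ccnd3 was at 34.9 ± 3.03 CPM in control, 28.9 ± 0.279 in IFN-γ, 30.1 ± 3.02 in Remodelin and 26.6 ± 0.699 in the combined group. Its values with both agents were all below those with IFN-γ alone, at a log2 fold change of only -0.12 ± 0.14. Ccnd1 stayed between 15.1 and 21.5 CPM in all 12 libraries. The summed FPKM of the D cyclins was 7.57 ± 0.445 with Remodelin against 8.15 ± 0.29 without.

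Counted over the set, 3 of 10 genes (Cdkn1a, Cdkn1c, Ccnd2) did not overlap between Remodelin and control, where 16.4% of all 13474 genes did not. With IFN-γ present 4 of 10 (the same 3 and Ccnd3) did not overlap, against 27.7%. Between all 6 libraries with and all 6 without Remodelin it was 2 of 10, against 4.66%. The members were picked on these contrasts, so nothing is read from these counts.

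**Figure D3:**
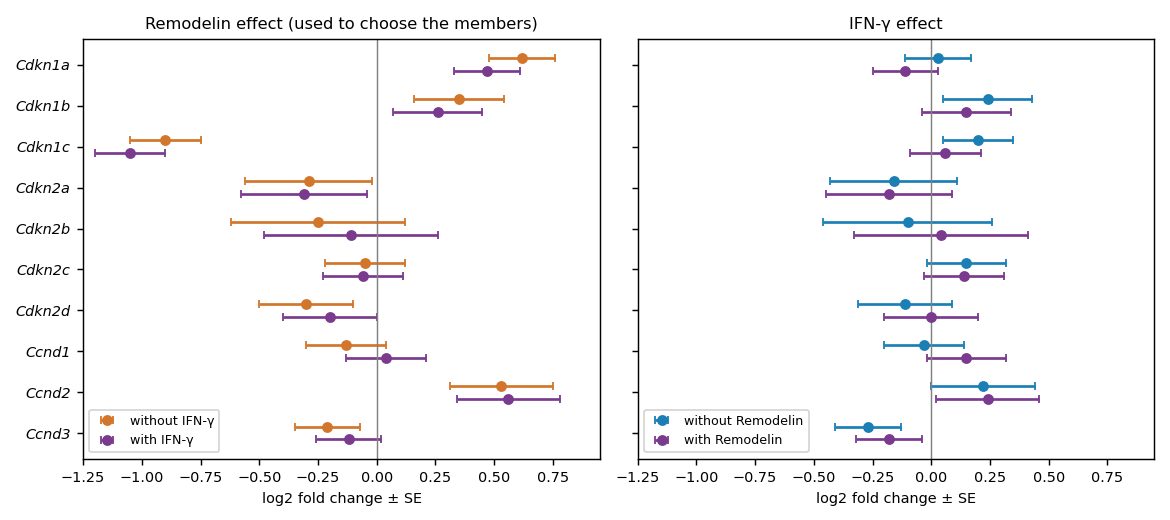
Log2 fold change with its standard error for each gene, from the quasi-likelihood fit over all 12 libraries. The left panel gives the effect of Remodelin, which chose the genes, and the right panel that of IFN-γ, where the 10 genes lie between -0.27 and 0.24.

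The IFN-γ comparisons were not used to choose the genes and were tested. With edgeR's quasi-likelihood test and Benjamini-Hochberg adjustment over 13474 genes, none of the 10 was called at an adjusted p under 0.05, in the absence of Remodelin (0.0148% of all genes called), in its presence (0% called) or averaged over both (0.00742% called). At an unadjusted p under 0.05 the counts were 0, 0 and 1 of 10, and DESeq2 called none of the 10 either. Ccnd3 was the 1 gene, at an average log2 fold change of -0.23 ± 0.10 (adjusted p = 0.369, edgeR). Its 3 IFN-γ libraries (28.6, 29.2 and 28.8 CPM) lay below its 3 controls (31.7, 35.1 and 37.8), but over all 12 libraries the levels overlapped. After each library's trend with transcript GC content was removed the average was -0.08, a change of over 1.5 times.

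Cdkn1c lay above the control range in each IFN-γ library but did not pass the test (log2 fold change 0.20 ± 0.15, edgeR adjusted p = 0.889). With Remodelin present it was at 0.06 ± 0.15. After removal of the GC trend these values were 0.36 ± 0.11 and 0.24 ± 0.11, still not called. Cdkn1a was at 0.03 ± 0.14 and -0.11 ± 0.14. The largest positive values, for Cdkn1b (0.24 ± 0.19) and Ccnd2 (0.22 ± 0.22) without Remodelin, were about as large as their standard errors. Cdkn1c and Ccnd3 were the 2 of 10 genes that did not overlap between IFN-γ and control, against 17.7% of all genes. With Remodelin present it was 0 of 10 against 9.48%, and over all libraries 0 of 10 against 0.675%. A missed threshold does not show that the levels were equal.

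Genes known to respond to IFN-γ were also not called. Of 18 such genes on a list, 15 passed the count filter and 0 were called in any IFN-γ comparison by edgeR, where 2, 0 and 1 of all genes were called without Remodelin, with it and on average. At an unadjusted p under 0.05 there were 0, 2 and 2 of the 15, against 724, 1043 and 1735 of all genes (5.37%, 7.74% and 12.9%). The median log2 fold change of the 15 was 0.11 on average, beside 0 for all genes. Gbp2, a guanylate-binding protein, was at 0.56 ± 0.12 (unadjusted p = 0.000298, adjusted p = 0.27) and the GTPase Irgm1 at 0.39 ± 0.16 (adjusted p = 0.348). DESeq2 called 0 of the 15 without Remodelin, 0 with it and 1 on average. How strongly these cells were stimulated was not tested.

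The interaction, which asks whether Remodelin acted differently with IFN-γ present, called 0 of the 10 genes, against 0.00742% of all genes. For Cdkn1c it was -0.15 ± 0.21 and for Cdkn1a -0.14 ± 0.20 on the log2 scale, both at an adjusted p of 1 (edgeR), and over the set it ran from -0.15 to 0.18 with standard errors of 0.20 to 0.52. None of the 10 had an unadjusted p under 0.05, and over all genes 310 did.

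The genes around the inhibitors were tested for Remodelin, averaged over both levels of IFN-γ, where 7.04% of all genes were called (302 higher and 647 lower). Without IFN-γ 0.846% and with it 0.364% of all genes were called. The 2 Remodelin comparisons use different libraries, and all of the averages below use all 12.

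Of 30 measured genes of S phase and mitosis, 13 fell, 0 rose and 17 did not pass the test, and the median log2 fold change was -0.36 beside 0.03 for all genes tested. Mcm5, a subunit of the replicative helicase, fell by 1.03 ± 0.13 (SE) on the log2 scale (edgeR adjusted p = 0.000176). Cdc20, an activator of the anaphase-promoting complex, changed by -0.86 ± 0.12, thymidine kinase Tk1 by -0.83 ± 0.14 and the mitotic cyclin Ccnb2 by -0.71 ± 0.14. Mcm5 and Cdc20 were also called with and without IFN-γ separately, 2 of 30 each time. The proliferation marker Mki67 was at 4.4 CPM on average, and its -0.57 ± 0.23 did not pass (adjusted p = 0.129), nor did that of Pcna, the replication clamp, at 0.21 ± 0.14, or of the licensing factor Cdt1, at 0.18 ± 0.10. With the GC trend removed 11 were called lower and 1 higher (Cdt1, 0.37 ± 0.09). The number called depended on single libraries: it was 4 without IFN-γ replicate 1, 5 without control replicate 2, and 6 without IFN-γ replicate 2 or Remodelin replicate 3. It was 7 without control replicate 3, IFN-γ replicate 3 or combined replicate 3, and 8 without combined replicate 1. Without Remodelin replicate 2 or combined replicate 2 it was 9, without control replicate 1 it was 12 and without Remodelin replicate 1 it was 14. The median stayed between -0.39 and -0.32 in all these fits, and Mcm5, Cdc20, Tk1 and Ccnb2 were called in every one.

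The direct partners of the inhibitors were counted separately, and the difference from the S phase list was not tested. Of 23 genes of the CDK, RB and E2F core, 1 rose and 0 fell, with a median of 0.04. The 1 gene was E2f5, a repressive E2F, at 0.62 ± 0.17 (edgeR adjusted p = 0.0402), and its call was lost in 11 of 18 alternative fits. With the GC trend removed the count was 0 higher and 1 lower, cyclin A2 (Ccna2, -0.42 ± 0.10). Cdk4, the main kinase partner of the D cyclins, was at 372 CPM and -0.16 ± 0.12, and Cdk2 at 17.1 CPM and -0.18 ± 0.12. Of 17 genes for ubiquitin ligase parts that act on the inhibitors and D cyclins, edgeR and DESeq2 called 0, with a median of -0.05, and 3 of 17 had an unadjusted p under 0.05, against 26.1% of all genes. The smallest p belonged to the scaffolds Cul1 (0.37 ± 0.16) and Cul4b (0.43 ± 0.19).

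Pathways known to act on Cdkn1a were counted separately. The difference between their lists, and their part in the level of Cdkn1a, was not tested. Of 17 genes of the integrated stress response, which works through the factor ATF4, 11 rose and 0 fell, with a median of 0.58. Mthfd2, of mitochondrial folate metabolism, was at 0.96 ± 0.09 (edgeR adjusted p = 1.66e-05), the asparagine synthetase Asns at 0.90 ± 0.11, the glutathione-degrading Chac1 at 1.13 ± 0.15 and the factor Ddit3 at 0.96 ± 0.16. In the separate comparisons 6 of 17 rose without IFN-γ and 3 of 17 with it. Of 23 measured p53 targets, with Cdkn1a left off the list, 4 rose and 0 fell, with a median of 0.16. These were Sesn2 (0.57 ± 0.12), which is also on the stress response list, the p53 ligase Mdm2 (0.63 ± 0.16), the polymerase Polk (0.70 ± 0.19) and the kinase Plk2 (0.34 ± 0.10). At an unadjusted p under 0.05 (edgeR) there were 9 of 23 p53 targets and 13 of 17 stress response genes, against 26.1% of all genes. With the GC trend removed 3 p53 targets were called higher and 1 lower, the death receptor gene Fas (-0.65 ± 0.14). Sesn2 kept its call in all 18 alternative fits, while Mdm2 kept it in 10, Polk in 6 and Plk2 in 5. The number of p53 targets that rose was 1 without control replicates 2 or 3, without any 1 IFN-γ library, and without Remodelin replicates 2 or 3. It was 2 without combined replicate 1, 3 without combined replicates 2 or 3, and 4 without control replicate 1 or Remodelin replicate 1. In the IFN-γ comparisons edgeR called 0 genes of either list, with 1 to 5 of each at an unadjusted p under 0.05, and DESeq2 called 1 stress response gene on average.

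**Figure D4:**
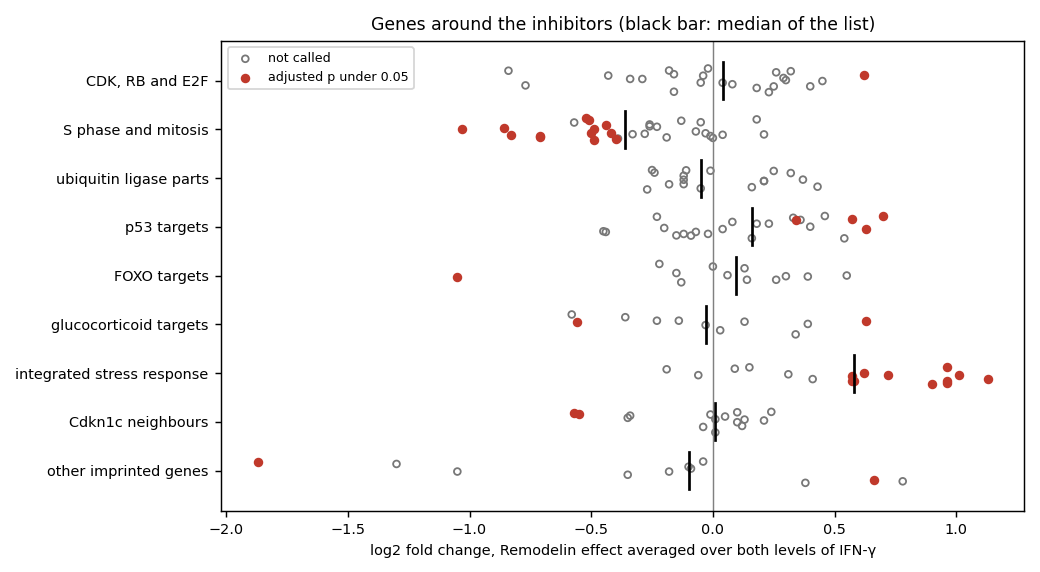
Log2 fold change with Remodelin, averaged over both levels of IFN-γ, for each measured gene of 9 lists. Filled points passed an adjusted p of 0.05 in edgeR, and black bars are medians, at -0.36 for S phase and mitosis, 0.58 for the integrated stress response and 0.16 for p53 targets. Vertical position within a list is only for legibility.

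Cdkn1c lies in an imprinted domain, and of 15 measured genes of that domain and its neighbours 2 fell and 0 rose, with a median of 0.01. The 2 were Dhcr7, a sterol synthesis enzyme (-0.57 ± 0.13, edgeR adjusted p = 0.0146), and Osbpl5, a lipid transfer protein (-0.55 ± 0.15, adjusted p = 0.0381). Without control replicate 2, or without IFN-γ replicate 1, neither was called, and Osbpl5 kept its call in 9 of 18 alternative fits. With the GC trend removed Dhcr7 was lower and the tRNA synthetase gene Cars higher (0.35 ± 0.08). Of 11 other imprinted genes tied to growth restraint Nnat fell (-1.87 ± 0.24, 2.54 CPM on average) and Zrsr1 rose (0.66 ± 0.15), the latter called in 14 of 18 alternatives. The median of the 11 was -0.1, with 8 negative and 3 positive. At an unadjusted p under 0.05 (edgeR) there were 7 of 11, against 26.1% of all genes. Of 12 FOXO targets, 1 fell, the thioredoxin-binding Txnip (-1.05 ± 0.09, edgeR adjusted p = 1.18e-05), and the median was 0.10. Of 11 glucocorticoid receptor targets the phosphatase Dusp1 rose (0.63 ± 0.11) and the factor Cebpd fell (-0.56 ± 0.12), with a median of -0.03. These 3 kept their calls in all 18 alternatives.

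Among the genes whose log2 CPM followed Cdkn1c most closely over the 12 libraries, of 8858 genes with a mean of at least 5 CPM, were the class II antigen-presentation gene H2-Ab1 (Pearson r = 0.972), the mevalonate enzyme Mvd (0.971), Txnip (0.964) and Tor3a (0.964). The lowest were Mthfd2 (-0.963), Arhgef3 (-0.96) and Dnajc18 (-0.946). All of these points share the Remodelin difference. Within groups, as deviations from the group means, r with Cdkn1c was 0.904 for Mvd, 0.873 for Tor3a and 0.814 for H2-Ab1, but 0.24 for Txnip. At the negative end it was -0.803 for Dnajc18, -0.617 for Arhgef3 and -0.057 for Mthfd2. The genes were picked for their r over these same libraries. GC trends of the libraries were not removed from these r or from those with Cdkn1a below. H2-Ab1 itself was at 65.4 ± 12.5 CPM in control and 36.1 ± 4.99 in Remodelin. Mthfd2 was at 65.3 ± 3.54 and 115 ± 4.98.

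Cdkn1a was followed most closely by Pck2 (mitochondrial phosphoenolpyruvate carboxykinase, r = 0.963), the pseudokinase Trib3 (0.952), Zkscan17 (0.947), Chac1 (0.923) and the serine synthesis enzyme Psat1 (0.917). Trib3, Chac1 and Psat1 are on the integrated stress response list. Within groups r was 0.918 for Pck2, 0.884 for Trib3, 0.761 for Zkscan17, 0.59 for Chac1 and 0.46 for Psat1. Pck2 stood at 58.9 ± 7.68 CPM in control, 50.6 ± 3.96 in IFN-γ, 105 ± 13 in Remodelin and 86.8 ± 14.8 in the combined group. Among the members, r over the 12 libraries was -0.82 between Cdkn1c and Cdkn1a and -0.80 between Cdkn1c and Ccnd2. It was 0.84 between Cdkn1b and Ccnd2 and, strongest of all, -0.88 between Cdkn1b and Cdkn2d. The transcripts of Cdkn1b and Ccnd2 have 43.1% and 47.1% GC and that of Cdkn2d 55.8%, and GC trends were not removed here. These values are a description without a test.

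Some markers of other cells were also lower with Remodelin. The summed level of 10 mesothelial markers was 104 to 127 CPM in control, 96.2 to 107 in IFN-γ, 55.2 to 69.2 in Remodelin and 59.9 to 74.5 in the combined group. Of the 9 measured markers 3 fell with Remodelin: Upk3b (-1.80 ± 0.13), Upk1b (-0.56 ± 0.13) and Krt19 (-0.71 ± 0.21), the last in only 5 of 18 alternatives, and the median was -0.24. Upk3b, a uroplakin, carried the separation of the sums, at 37.6 to 59.4 CPM in the libraries without Remodelin and 11.1 to 16.6 with it. The other 9 markers summed to 54.8 to 75.2 CPM without and 43.7 to 58.5 with Remodelin and overlapped. The keratins Krt8 (0.43 ± 0.17) and Krt18 (0.61 ± 0.20) did not pass the test, but both were called higher with the GC trend removed, where 2 of 9 were higher and 2 lower. The 8 B cell markers summed to 20.8 to 26.1 CPM in control, 24 to 27.7 in IFN-γ, 13 to 16.4 in Remodelin and 14.7 to 16.1 in the combined group, and of 7 measured Ighm (-0.92 ± 0.14) and Igkc (-0.77 ± 0.19) fell.

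Stromal markers overlapped between groups, at 304 to 713 CPM, with Mgp (-1.57 ± 0.14) and Col3a1 (-0.93 ± 0.17) lower among 8. Neutrophil markers summed to 23.8 to 32.2 CPM in control and 17.8 to 24.9 in Remodelin, which overlapped. With IFN-γ they were at 33.9 to 39.2 CPM, and in the combined group lower, at 24.5 to 31.3. Of 3 measured 1 was called lower (Mmp8, -1.30 ± 0.18). Mast cell (1.25 to 4.76 CPM), dendritic cell (3.58 to 6.24) and endothelial markers (2.31 to 6.83) were low. In each, edgeR and DESeq2 called 0 of 2, with at most 1 of 2 at an unadjusted p under 0.05. Mast cell sums were nevertheless lower in every library with Remodelin (1.97 to 3.17 CPM, and 1.25 to 2.81 with IFN-γ). Without it they were at 4.02 to 4.76 in control and 3.21 to 3.91 in IFN-γ. Endothelial sums overlapped between control and Remodelin, but were 2.31 to 4.23 CPM in the combined group against 4.92 to 5.95 in IFN-γ. T or NK cell markers summed to at most 1.41 CPM, none passed the count filter and Ncr1 was at 0 in all 12 libraries. Of the 8 macrophage markers edgeR called 0 and DESeq2 1 for Remodelin on average, with 3 positive, 5 negative and a median of -0.09. The smallest p belonged to Adgre1 (0.22 ± 0.09, edgeR adjusted p = 0.121), at 148 to 171 CPM without Remodelin and 172 to 200 with it. In bulk RNA fewer cells of a type and less RNA per cell cannot be told apart. The part of other cells in the Cdkn1c, Cdkn1a or cell cycle values was not tested.

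**Figure D5:**
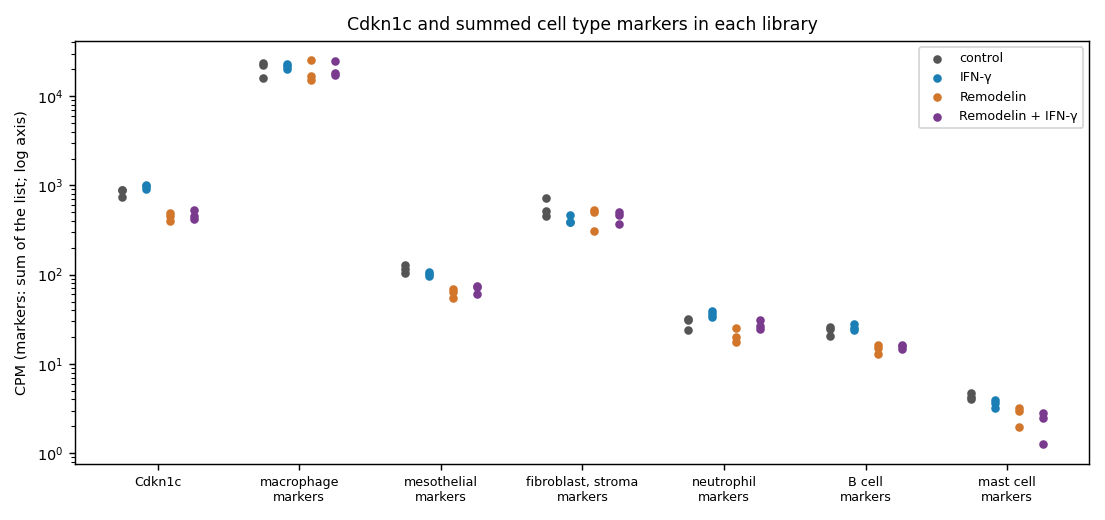
Level of Cdkn1c and summed level of 6 marker lists in each library, in CPM on a log axis. Mesothelial sums of 55.2 to 74.5 CPM with Remodelin lie below the 96.2 to 127 CPM without it. Macrophage sums, which are mostly Lyz2, overlap. The mesothelial separation rests on Upk3b, and the other 9 markers overlap.

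Libraries also differed in how their counts followed base composition. The transcript of Cdkn1c has 59.4% GC, above 94.7% of tested genes, and that of Cdkn1a 54.4%. Across genes, the Spearman correlation of a library's deviation with GC content was 0.123 to 0.55 in control, -0.168 to 0.218 in IFN-γ, -0.373 to 0.264 in Remodelin and -0.69 to -0.115 in the combined group. Control and Remodelin overlapped, while the combined group lay below control. With each library's GC trend removed, the log2 fold change of Cdkn1c with Remodelin was -0.70 ± 0.11 without IFN-γ and -0.83 ± 0.11 with it, and that of Cdkn1a 0.74 ± 0.10 and 0.61 ± 0.10. The directions of Cdkn1c and Cdkn1a were the same in all alternative fits. Cdkn1a, Cdkn1c, Ccnd1, Ccnd2 and Ccnd3 overlap genes on the opposite strand in the deposited coordinates, and whether the counting used strand is not given in those sources that were used here. For Cdkn1c the overlapping RNA held 3 reads against 145389, and for Cdkn1a 23 against 23365. Ccnd1 overlaps LTO1, which held 4128 reads against 3851, and Ccnd3 overlaps Bysl, with 4560 against 6397, so the values of these 2 cyclins are uncertain.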

How the data were processed

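One deposited table held, for each of the 12 libraries, raw read counts per gene and FPKM values computed by the authors. Per the submitters' processing notes, the tools were HISAT2 2.0.5, featureCounts 1.5.0-p3 and CASAVA 1.8, with no role stated. Build, annotation and strand setting: not given in the sources used here. Groups came from the labelled treatments.

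The deposited counts were tested in edgeR 4.0.16 (R 4.3.3, limma 3.58.1) with the quasi-likelihood test, TMM scaling, filterByExpr by group, all 12 libraries in one fit and Benjamini-Hochberg adjustment, called under 0.05. SE is the log2 fold change divided by the square root of F. The deposited FPKM values were used only to compare levels between genes and for shares. They imply library totals of 0.856 to 1.12 times the summed counts, so the authors' scaling was not by total count. Correlations used log2 CPM with a prior count of 2. The fit was tested on simulated data. Alternatives were DESeq2 1.42.0, its size factors, no count filter, a replicate block, the compared groups alone, removal of GC trends (GC known for 99% of tested genes) and leaving out each library.

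Members, lists and markers were chosen with earlier results of these data known. The text names all 10 members, up to 4 called genes per list with the smallest p (or 2 if none was called), the 5 genes most like Cdkn1a, those most like Cdkn1c (of 5 chosen, the one ranked highest is not reported here) and the 3 least like Cdkn1c. Exceptions, chosen after their values were seen, are Mki67, Pcna, Cdt1, Cdk4, Cdk2, Ccna2, Fas, Cars, Krt8, Krt18, Gata6, Timd4 and Lyz2.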

Additional observations from a re-analysis of the deposited data

How the results depend on the processing

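Cdkn1c kept its lower and Cdkn1a its higher level with Remodelin in every alternative fit. Leaving out 1 library at a time gave log2 fold changes for Cdkn1c of -0.98 to -0.83 without IFN-γ, -1.15 to -0.95 with it and -1.03 to -0.91 on average, and for Cdkn1a of 0.55 to 0.69, 0.40 to 0.56 and 0.50 to 0.61. Removing the GC trend gave -0.70, -0.83 and -0.76 for Cdkn1c and 0.74, 0.61 and 0.68 for Cdkn1a. A replicate block together with GC removal gave -0.71, -0.83 and -0.77 and 0.74, 0.61 and 0.68. No member was called for IFN-γ or the interaction in any alternative.

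Counts of called genes moved more. Without the low-count filter they were 52 for IFN-γ without Remodelin, 6 with it, 325 on average, 19 for the interaction, 283 and 271 for Remodelin without and with IFN-γ, and 1406 (778 higher, 628 lower) on average. DESeq2 gave 4, 1, 23, 1, 267, 261 and 1378 (604 higher, 774 lower) in that order. DESeq2 size factors gave 1 for IFN-γ without Remodelin. The compared groups alone gave 19 for IFN-γ, and 22 and 83 for Remodelin. With the GC trend removed there were 1 for IFN-γ without Remodelin, 0 for the interaction (419 at an unadjusted p under 0.05) and 193 for Remodelin without IFN-γ. Leaving out 1 library gave 1 to 6, 0 to 0, 0 to 4, 0 to 1, 20 to 216, 10 to 144 and 298 to 1960, the last being lowest without control replicate 2 and highest without Remodelin replicate 1. The causes were not tested.

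The labels do not say what libraries with the same replicate number share. Of 18 same-numbered pairs 5 deviated together at r above 0.1, against 12 of 36 pairs with other numbers. Of the 12 libraries 2 correlated best with their own number. These counts cannot show whether same-numbered libraries had a common source. With the replicate block there were 1 call for IFN-γ without Remodelin, 58 and 24 for Remodelin without and with IFN-γ and 578 on average.

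Alternatives for the gene lists were added after seeing the data. S phase and mitosis genes called lower numbered 6 with the replicate block and 8 without the filter, against 13, and p53 targets called higher numbered 2 with the block, against 4. Stress response genes called numbered 9 to 13. With the GC trend removed the counts higher and lower were 1 and 11 for S phase and mitosis, 3 and 1 for p53 targets, 0 and 1 for the CDK, RB and E2F core, 1 and 1 for the imprinted domain and 2 and 2 for mesothelial markers. Averages and the interaction need all 4 groups, so a fit of the compared groups alone gave no value for them.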

Other observations

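The IFN-γ response list was also read against Remodelin. Of 15 measured genes 3 fell and 0 rose on average over both levels of IFN-γ, with a median log2 fold change of -0.12 beside 0.03 for all genes. In that comparison 7.04% of all 13474 genes were called, 302 higher and 647 lower. With the replicate block 1 of the 15 was called lower. The chemokine Cxcl10 was at -1.47 ± 0.25 (SE, edgeR adjusted p = 0.00297), the class II transactivator Ciita at -1.31 ± 0.34 (adjusted p = 0.029) and the factor Irf1 at -0.47 ± 0.12 (adjusted p = 0.0326). Cxcl10 and Ciita were low, at 1.65 and 1.08 CPM on average. Cxcl10 was called in 18 of 18 alternative fits, Ciita in 11 and Irf1 in 7. H2-Ab1, a class II gene that is not on this list, was at -0.94 ± 0.12. It was picked for its correlation with Cdkn1c, which holds the Remodelin difference, so this value is a description without a test.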
